A study of Mus musculus with 36 samples.

Results

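The heart response to lipopolysaccharide (LPS) was measured on 6 arrays, 3 of hearts from LPS-treated mice and 3 of hearts from mock mice, out of 36 arrays in the series, and it is described here across the 9669 genes measured in heart. LPS, the endotoxin of the outer membrane of Gram-negative bacteria, is used in mice as a model of acute systemic inflammation. The mice were females of strain FVB carrying a luciferase transgene, aged 6 to 8 weeks, and the series drew on 25 of them. Mock mice received no treatment, and LPS mice received 4 mg/kg into the peritoneal cavity, with tissues taken 4 h later. A further group of 3 hearts came from mice given genipin, an iridoid of gardenia fruit, 10 min after the same LPS dose, and its values are given only where they stand beside a result. The arrays of the other tissues held brain, kidney and liver of the same 3 treatments. The sources used here do not give the promoter of the transgene, the genipin dose of the arrayed mice or whether the 3 arrays of a group were separate mice. The p-values therefore reflect the spread among the arrays alone, which may be technical.

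Endotoxin is bound in plasma by LBP and passed through CD14 to the TLR4 and MD-2 receptor, which signals through MYD88 and TRIF to NF-kB and to interferon regulatory factors. In the heart, endothelial cells, resident macrophages, fibroblasts and cardiomyocytes can all respond to LPS or to the cytokines it releases. The endotoxin-exposed heart is known for leukocyte adhesion to its vessels, leaky capillaries, weaker contraction and a lower use of fatty acids as fuel.

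Values are log2 intensities, and differences are LPS minus mock on the log2 scale ± SE, each over 3 arrays per group. A gene counted as changed, that is higher or lower, where the limma p-value adjusted over all 9669 genes was under 0.05. Arrays of one group correlated at 0.985 to 0.995, and the median SD between arrays was 0.112 in mock and 0.129 in LPS hearts. Intensities were raised to a floor of 263 (log2 8.04), and intensities of 60000 or more (log2 15.87) were treated as saturated. A gene with all 3 arrays of one group at such a limit was given a bound, written as "at least", and so were genes named here with all 3 arrays of one group within 0.1 log2 units of the floor. The tissue label held for the muscle genes: of 14 cardiomyocyte markers, the 8 genes Actc1, Ckm, Mb, Myh6, Myl3, Tnnc1, Tnni3 and Tnnt2 were saturated on all mock and LPS arrays.

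With LPS, 4550 of 9669 genes changed (47.1%), 1756 upward (18.2%) and 2794 downward (28.9%). The shares of 18.2% and 28.9% are the background for every list count below. Some genes are on several lists, as Lcn2 is on those of acute-phase, iron and glucocorticoid-responsive genes, so the list counts are not independent. The large changes were mostly rises. At least 2-fold higher were 467 genes (4.83%) and at least 2-fold lower were 225 (2.33%). At least 4-fold changes numbered 163 upward against 12 downward, and 74 genes rose at least 8-fold and 33 at least 16-fold. Among the changed genes, 2630 lay under 1.5-fold, of which 1822 fell. The 3 LPS arrays lay wholly above or wholly below the 3 mock arrays for 5233 genes (54.1%), so a gene without overlap was common in these hearts. The median difference over all genes was -0.06.

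Transcripts of fat and of the atria stood apart in all 3 LPS hearts and are therefore given first. Of 23 measured fat transcripts 17 rose and none fell, with a median difference of 0.88. Cfd, the complement protease adipsin of adipocytes, read 10.06, 10.07 and 10.17 in mock hearts and 15.66, 15.84 and 15.65 in LPS hearts (5.62 ± 0.07). Adipoq, which encodes the adipocyte hormone adiponectin, read 9.54, 9.44 and 9.07 in mock and 14.31, 14.35 and 14.30 in LPS hearts (4.97 ± 0.11). The mock and LPS arrays were far apart for both genes. Pck1, the cytosolic carboxykinase of glyceroneogenesis in fat, rose by 4.74 ± 0.17, the muscle and fat carbonic anhydrase Car3 by 4.20 ± 0.10 and the fatty acid synthase Fasn by 3.82 ± 0.06, and the desaturase Scd1 was at least 12.5-fold higher. Smaller rises were those of Acaca (2.49 ± 0.12), Dio2 (at least 2.24, from mock values next to the floor), Gpd1 (1.82 ± 0.07), Cidea (1.49 ± 0.08), Thrsp (1.04 ± 0.07), Slc36a2 (0.88 ± 0.07), Plin4 (0.87 ± 0.08), Acly (0.81 ± 0.09), Mrap (0.78 ± 0.07), Lipe (0.63 ± 0.12) and Trarg1 (0.51 ± 0.12). Among the fat transcripts that did not pass, the fatty acid carrier Fabp4 differed by 0.40 ± 0.25, Dgat2 by 0.22 ± 0.10, Pparg by 0.18 ± 0.07, Aqp7 by 0.00 ± 0.07 and Agpat2 by -0.25 ± 0.12. The lipase Lpl was saturated in both groups.

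Of 14 measured atrial transcripts 10 rose and none fell (1 without LPS heart 1), with a median of 0.96. Myl7, the regulatory myosin light chain of atrial muscle, read 10.47, 10.25 and 10.30 in mock hearts, was saturated in all 3 LPS hearts and was thus at least 50.6-fold higher. Myl4, the essential atrial light chain, read 11.52, 11.58 and 11.41 in mock hearts, was saturated in LPS hearts and was higher by at least 4.46 on the log2 scale. The secreted protein Dkk3 rose by 3.73 ± 0.10, the atrial myosin-binding protein Mybphl by 3.44 ± 0.05 and the lipid transfer protein Stard10 by 2.26 ± 0.16. Gja5, the connexin of atrium and conduction system, rose by 1.60 ± 0.06, the peptide-amidating enzyme Pam by 1.02 ± 0.14, the atrial potassium channel Kcnj3 by 0.90 ± 0.07, the sinus node factor Shox2 by 0.76 ± 0.22 and the conduction system factor Tbx3 by 0.33 ± 0.08. The call of Shox2 was lost under at least 1 other setting. Kcna5 (0.28 ± 0.11), Myh7b (-0.13 ± 0.12), Angpt1 (-0.22 ± 0.10) and Nr2f1 (-0.58 ± 0.33) did not pass.

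**Figure D1:**
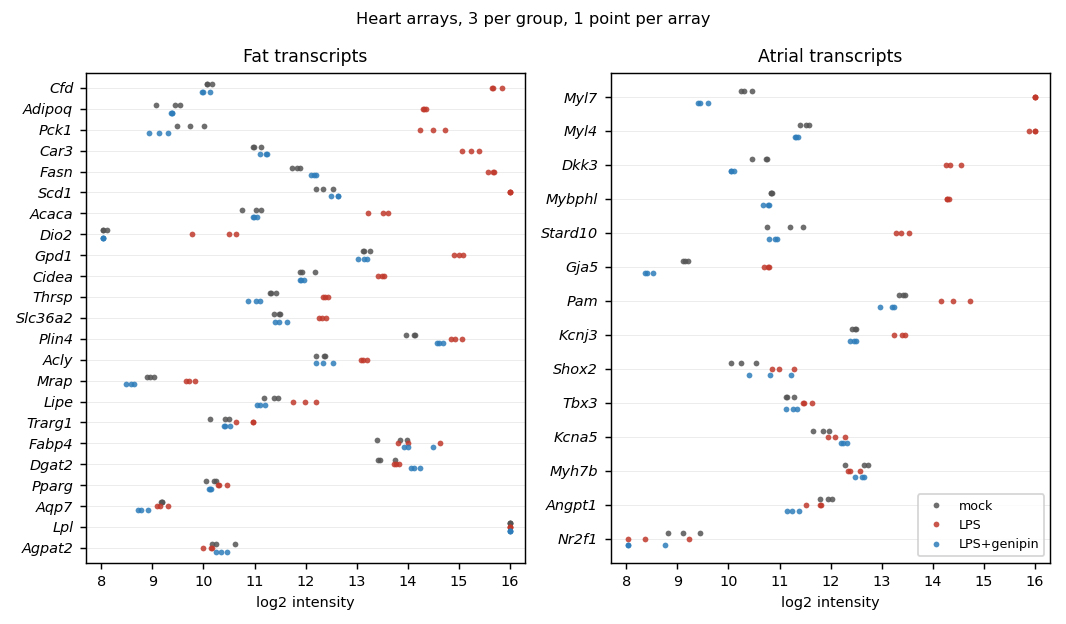
Log2 intensity of each measured fat transcript (left) and atrial transcript (right) on every heart array, 1 point per array, with mock in grey, LPS in red and LPS+genipin in blue. For the upper genes of both panels the LPS points lie far to the right of the mock and LPS+genipin points, as for Cfd (LPS 15.65 to 15.84, mock 10.06 to 10.17).

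The summed level of the fat list was 17.22 to 17.27 in mock hearts and 18.82 to 18.87 in LPS hearts, and that of the atrial list 15.43 to 15.50 and at least 17.82 to 17.86, since Myl7 and Myl4 were saturated. LPS+genipin hearts read 17.37 to 17.47 for fat and 15.29 to 15.36 for atrial transcripts, near the mock values. For Cfd they read 9.97, 9.99 and 10.13, and for Myl7 they read 9.41, 9.60 and 9.44. Whether the LPS hearts held more atrial and fat tissue, or their cells held more of these RNAs, cannot be told apart in whole-tissue RNA, and the same holds for every cell type below. Among the other lists, 1 of 3 mesothelial markers rose (Msln, 1.69 ± 0.17; 2 without LPS heart 2), 3 of 7 markers of neighbouring tissues rose and 1 fell, and 2 of 5 red cell and platelet markers rose (Pf4 by 1.46 ± 0.07, Alas2 by 0.50 ± 0.08) while 1 fell (Ppbp, -1.30 ± 0.09). When the 9 heart arrays were normalized again without the fat and atrial lists, 4529 of 9632 genes changed. That step removed only the listed genes, so it cannot show how tissue makeup bears on the other genes.

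Outside those lists, the largest rises were in secreted acute-phase proteins, chemokines and interferon-induced genes. Hp, which encodes the haemoglobin-binding protein haptoglobin, read 8.04 in each mock heart, with 2 of the 3 at the floor, and 15.86, 15.82 and 15.62 in LPS hearts. Its mock arrays lay at or next to the floor and its LPS arrays near the top of the scale, so the difference was at least 7.72 on the log2 scale (adjusted p = 1.2e-09). Cxcl1, a neutrophil-attracting chemokine, read 9.08, 9.12 and 9.11 in mock hearts and was saturated in the 3 LPS hearts, at least 118-fold higher. Lcn2, the siderophore-binding protein lipocalin-2, read 9.88, 9.86 and 9.81 against saturation, at least 70.6-fold higher. Ccl2, the main monocyte-attracting chemokine, lay at the floor in all mock hearts and at 14.03, 14.10 and 13.99 in LPS hearts, at least 64.0-fold higher.

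The next genes in size rose by 4.42 to 5.21 log2 units. Cxcl9, a chemokine for CXCR3-bearing T cells, rose by 5.21 ± 0.07 and Ackr1, the chemokine-binding receptor of venular endothelium and red cells, by 5.02 ± 0.06. Ch25h, which makes 25-hydroxycholesterol, read 8.04, 8.04 and 8.09 in mock hearts, next to the floor, and rose by at least 4.96. Timp1, an inhibitor of matrix metalloproteinases, rose by 4.93 ± 0.11. The guanylate-binding protein Gbp5 rose by 4.83 ± 0.20 with the brighter of its probes and by 2.36 with the other. Prg4, the lubricating proteoglycan of joints and serous surfaces, rose by 4.78 ± 0.08, the GTPase Ifi47 by 4.75 ± 0.14 and Plac8 by 4.70 ± 0.13. Cdo1, the cysteine dioxygenase, rose by 4.52 ± 0.09, Lbp, the LPS-binding protein, by 4.52 ± 0.07 and Ltf, the iron-binding granule protein lactoferrin, by 4.42 ± 0.13. LPS+genipin hearts read 9.98, 10.09 and 10.25 for Timp1, 9.45, 9.74 and 9.69 for Cdo1 and 9.66, 9.54 and 9.25 for Ltf, next to mock means of 8.886 for Timp1, 8.996 for Cdo1 and 9.11 for Ltf.

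**Figure D2:**
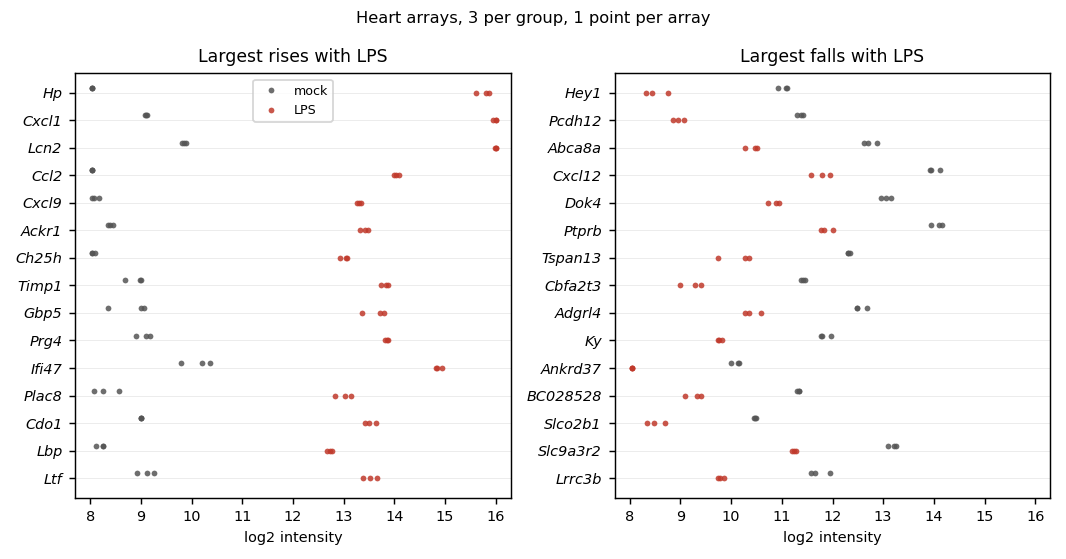
Log2 intensity on each mock (grey) and LPS (red) heart array for the 15 genes with the largest rise (left) and the 15 with the largest fall (right), fat and atrial lists left out. No gene shown has overlapping groups, by the way they were chosen, and the rises span more log2 units than the falls (at least 7.72 for Hp against -2.53 for Hey1).

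The promoters of 3 strongly raised genes are shown because they carry letters known as binding motifs of factors downstream of TLR4 and the interferon receptors, namely the NF-kB motif (kB) and the interferon-stimulated response element (ISRE). The windows of 300 bases span each gene's start and come from RefSeq on GRCm38.p6, and all 3 genes lie on the plus strand. The motifs searched on both strands were, for kB, GGG and TTTCC with 2 bases of any kind between them, and, for ISRE, GAAA and a second GAAA with 2 bases of any kind between them. Capitals mark the motif for which the gene was chosen. The windows are chr5:90890995-90891294 for Cxcl1, chr3:142496684-142496983 for Gbp5 and chr3:142559794-142560093 for Gbp3. Cxcl1 and Gbp5 were the largest rises with a kB match and Gbp3 the next with an ISRE match.
Cxcl1: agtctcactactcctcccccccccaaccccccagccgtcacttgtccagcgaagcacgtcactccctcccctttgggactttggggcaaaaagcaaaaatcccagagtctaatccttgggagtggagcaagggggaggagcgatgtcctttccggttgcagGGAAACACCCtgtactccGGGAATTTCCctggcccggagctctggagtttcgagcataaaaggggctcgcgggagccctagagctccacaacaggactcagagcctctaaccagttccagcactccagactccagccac
Gbp5: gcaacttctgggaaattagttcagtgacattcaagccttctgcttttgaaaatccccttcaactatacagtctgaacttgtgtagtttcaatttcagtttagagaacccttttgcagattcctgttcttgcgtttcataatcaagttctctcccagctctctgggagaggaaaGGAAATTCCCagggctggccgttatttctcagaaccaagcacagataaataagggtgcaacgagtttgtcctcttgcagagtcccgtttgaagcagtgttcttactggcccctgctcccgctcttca
Gbp3: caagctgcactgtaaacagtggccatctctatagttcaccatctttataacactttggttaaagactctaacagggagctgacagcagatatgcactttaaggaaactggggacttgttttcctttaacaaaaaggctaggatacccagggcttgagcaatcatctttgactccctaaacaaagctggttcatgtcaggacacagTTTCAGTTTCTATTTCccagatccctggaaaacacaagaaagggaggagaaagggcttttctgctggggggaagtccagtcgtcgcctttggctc
The kB matches of Cxcl1 begin at -89 and -71 from the start and that of Gbp5 at -77. The ISRE matches of Gbp3 begin at -45 and -39 and overlap each other. Gbp5 also held an ISRE match at -165, not capitalised.

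Of 7815 heart genes with a promoter in the table, 1.96% held the kB motif and 3.53% the ISRE, next to 1.89% and 3.99% of all 27025 genes of the table. Among 357 genes at least 2-fold higher with LPS the shares were 5.04% (18 genes) and 9.52% (34 genes). Among 175 genes at least 2-fold lower they were 2.86% (5 genes) and 5.14% (9 genes). In the gene lists, 6 of 7 interferon-induced GTPases and 10 of 22 antiviral genes held an ISRE match, and 4 of 11 NF-kB genes and 2 of 10 chemokines held a kB match. These matches describe letters in the window only, and no difference between shares was tested.

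Of 14 measured chemokines 8 rose, 1 fell (2 without LPS heart 2) and 5 did not pass, with a median difference of 1.49. Besides Cxcl1, Ccl2 and Cxcl9, the monocyte-attracting Ccl9 rose by 1.94 ± 0.09 and Ccl11, the eosinophil-attracting eotaxin, by 1.74 ± 0.12. The member that fell was Cxcl12, a homeostatic chemokine that retains leukocytes and progenitors. It read 14.12, 13.95 and 13.92 in mock and 11.80, 11.95 and 11.57 in LPS hearts (-2.22 ± 0.13), but its second probe differed by -0.03.

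Of 12 interleukins and inflammatory growth factors 4 rose and 2 fell, or 1 fell without LPS heart 1 or 3 or mock heart 1 or 3. Csf3, which encodes the neutrophil growth factor G-CSF, read 8.13, 8.42 and 8.18 in mock and 12.33, 12.29 and 12.35 in LPS hearts (4.08 ± 0.08). Il33, an alarmin of endothelial and stromal nuclei, read 9.67, 9.57 and 9.71 against 13.14, 13.19 and 13.14 (3.50 ± 0.07). Csf1, the macrophage growth factor, rose by 1.79 ± 0.06. Tnf, the early cytokine of the endotoxin response, read 8.30, 8.41 and 8.04 in mock and 8.42, 8.39 and 8.90 in LPS hearts. The Tnf arrays of both groups overlapped near the floor, and its difference of 0.32 ± 0.19 did not pass (adjusted p = 0.19). Il1b, Il6 and Nos2 had no measured heart probe and are not analysed here.

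Receptors for these ligands rose more often than not, with 14 of 21 higher, 5 lower and a median of 0.58. Il17ra, the interleukin-17 receptor, rose by 2.58 ± 0.08 with one probe and by 0.83 with the other. The oncostatin M receptor Osmr rose by 2.24 ± 0.08, the interleukin-4 receptor chain Il4ra by 2.13 ± 0.21, the interleukin-1 receptor Il1r1 by 1.84 ± 0.09 and the TNF receptor Tnfrsf1a by 1.29 ± 0.05. The macrophage growth factor receptor Csf1r fell, by -0.60 ± 0.11.

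Of 25 genes of LPS recognition and signalling 13 rose and 3 fell, with a median of 0.44, and 1 fell without LPS heart 1 or 2. Of the proteins that handle LPS outside the cell, Lbp and Cd14 rose and Ly96 (MD-2) did not pass (-0.11 ± 0.18). Lbp read 8.12, 8.26 and 8.24 in mock and 12.74, 12.67 and 12.77 in LPS hearts, and the co-receptor Cd14 read 11.91, 11.81 and 11.59 against 14.14, 14.21 and 14.16 (2.40 ± 0.08). Tlr2, the receptor for bacterial lipoproteins, rose by 3.10 ± 0.08. The endotoxin receptor Tlr4 itself read 11.23, 11.16 and 11.06 in mock and 10.60, 10.83 and 10.92 in LPS hearts, a fall of -0.37 ± 0.12 (adjusted p = 0.030). That call was lost without LPS heart 1 (adjusted p = 0.092), LPS heart 2 (0.056), mock heart 1 (0.088) or mock heart 2 (0.075). Downstream, the adaptor Tifa rose by at least 3.57 from mock values of 8.04, 8.04 and 8.05, next to the floor, the inhibitory kinase-like protein Irak3 by 3.35 ± 0.06, the kinase Ikbke by 3.23 ± 0.09, the kinase Map3k8 by 2.49 ± 0.10 and the adaptor Myd88 by 2.14.

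Of 14 NF-kB subunits and inhibitors 12 rose and none fell, with a median of 1.46. Nfkbiz, a nuclear cofactor of NF-kB, rose by 3.50 ± 0.16, Birc3, an inhibitor of apoptosis, by 2.47 ± 0.06 and Bcl3 by 2.27 ± 0.16. Nfkbia, the inhibitor IkBa, was saturated in LPS hearts after 14.10, 14.22 and 14.26 in mock hearts. Tnip1, a partner of the brake A20, rose by 1.70 ± 0.15 with its brighter probe and by 0.77 with the other.

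Among the IRF, STAT, SOCS and C/EBP genes 13 of 24 rose and 2 fell, or 1 fell without LPS heart 2 or 3 or mock heart 1. Socs3, the feedback inhibitor of STAT3 signalling, read 10.63, 10.56 and 10.57 in mock and 14.62, 14.42 and 14.52 in LPS hearts (3.94 ± 0.08). Irf1, an interferon-induced activator, rose by 2.47 ± 0.08, Stat2 by 2.10 ± 0.09, the myeloid factor Irf8 by 2.01 ± 0.07, Socs1 by 1.83 ± 0.17 and Irf9 by 1.60 ± 0.11. No member of this list fell by 2-fold or more.

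All 9 measured interferon-induced GTPases, which attack the membranes of vacuoles around microbes, rose, with a median of 3.87. Gbp3 read 10.56, 10.46 and 10.46 in mock and 14.83, 15.05 and 14.80 in LPS hearts (4.40 ± 0.08), Igtp rose by 4.09 ± 0.06, Gbp2 by 3.87 ± 0.08 and Irgm2 by 3.42 ± 0.09. Of 29 antiviral effectors and nucleic acid sensors 24 rose, none fell and 23 were at least 2-fold higher, with a median of 2.17. Ifit3, which binds foreign RNA as part of the IFIT complex, rose by 4.25 ± 0.10, the ubiquitin-like Isg15 by 4.15 ± 0.07 and Usp18, which removes Isg15 and dampens interferon signalling, by 3.46 ± 0.12. The mock and LPS arrays of these genes were separated by several log2 units.

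Antigen presentation split by class. Of 14 genes of MHC class I and the immunoproteasome 9 rose and none fell, with the proteasome subunits Psmb9 at 2.27 ± 0.14 and Psmb8 at 2.08 ± 0.15, the peptide transporter Tap2 at 1.81 ± 0.12 and the class I heavy chain H2-D1 at 0.98 ± 0.09. None of the 5 MHC class II genes passed the test, with differences of -0.17 for H2-DMb2 to 0.31 for Cd74, and 1 rose without LPS heart 3 or mock heart 3. The difference between the classes was not tested. Cd274, which encodes the inhibitory ligand PD-L1, read 9.35, 9.22 and 8.84 in mock and 12.66, 12.63 and 12.49 in LPS hearts (3.46 ± 0.13).

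Secreted acute-phase proteins rose in 9 of 10 members, with a median of 2.72, and the other passed as lower without LPS heart 2. Besides Hp and Lcn2, the protease inhibitor Serpina3n was at least 19.4-fold higher, the metalloreductase Steap4 rose by 2.93 ± 0.11 and the glycoprotein Lrg1 by 2.50 ± 0.06. Complement genes rose in 7 of 11 members and fell in 2, with 1 lower without LPS heart 2, mock heart 2 or mock heart 3 and 0 without mock heart 1. C3, the central component, was saturated in LPS hearts after 14.64, 14.66 and 14.50 in mock hearts, C2 rose by 2.06 ± 0.07, C1ra by 1.64 ± 0.05 and the C1 inhibitor Serping1 by 1.10 ± 0.12. Iron genes rose in 9 of 17 members and fell in 3, with the copper ferroxidase Cp at 1.78 ± 0.09 and transferrin, Trf, at 0.91 ± 0.05. Cp and Lcn2 are on both the iron and the acute-phase list.

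Of 15 neutrophil and monocyte products 11 rose and 3 fell, with a median of 1.13. The calprotectin genes S100a8 (9.84, 9.93 and 9.91 against 13.93, 13.94 and 13.87) and S100a9 (9.81, 9.69 and 9.92 against 14.02, 13.87 and 13.67) rose by 4.02 ± 0.06 and 4.05 ± 0.15. Clec4d, a C-type lectin of myeloid cells, rose by 3.09 ± 0.05 and Cybb, the oxidase subunit of phagocytes, by 2.00 ± 0.15. Lyz2, the lysozyme of macrophages and neutrophils, fell by 1.05 on the log2 scale. The summed level of the list was 14.65 to 14.70 in mock, 16.09 to 16.19 in LPS and 15.51 to 15.57 in LPS+genipin hearts. Of 13 macrophage markers 7 rose and 4 fell, with 1 lower without mock heart 1 and 2 without mock heart 2 or 3. Cd163 rose by 1.12 ± 0.17 and Mrc1 by 0.72 ± 0.08, while Adgre1 (0.13) and Cd68 (0.05) did not pass. Among those that fell were Csf1r (-0.60 ± 0.11), C1qa (-0.40 ± 0.11) and C1qc (-0.24 ± 0.08). The markers' summed level was 14.96 to 15.02 in mock and 15.08 to 15.18 in LPS hearts. Of 3 lymphocyte markers Cd3e rose (0.87 ± 0.21), and 2 rose without LPS heart 1.

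Genes of programmed cell death rose in 6 of 11 members, and 1 fell. Casp4, the caspase that binds intracellular LPS, read 8.40, 8.46 and 8.48 in mock and 12.25, 12.49 and 12.32 in LPS hearts (3.90 ± 0.07). Mlkl, the executioner of necroptosis, rose by 2.81 ± 0.17 and Gsdmd, the pore former of pyroptosis, by 1.06 ± 0.09. Casp1 rose by 2.34 ± 0.54, but mock heart 3 read 8.38 where the other 2 mock hearts read 10.61 and 10.67, and without that array the rise was 1.58 (adjusted p = 2.3e-05).

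Endothelial genes changed in both directions. Of 10 adhesion genes 4 rose (40.0%, next to 18.2% of all genes) and 3 fell (30.0%, near the 28.9% of all genes). Icam1, the ligand of leukocyte integrins, read 11.10, 10.75 and 10.92 in mock and 15.06, 15.15 and 15.13 in LPS hearts (4.19 ± 0.10), and Vcam1 read 12.55, 12.35 and 12.38 against 15.84 and 15.75 in LPS hearts 1 and 3 and saturation in LPS heart 2 (3.44 ± 0.08). Both genes were clearly separated between groups. The junction genes Jam2 (-0.68 ± 0.09) and F11r (-0.43 ± 0.11) fell.

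Of 45 genes of endothelial quiescence and identity 27 fell (60.0%, next to 28.9% of all genes) and 10 rose (22.2%, next to 18.2%). The other 8 did not pass, and the median was -0.53. Hey1, a transcription factor downstream of Notch, read 10.93, 11.09 and 11.10 in mock and 8.44, 8.75 and 8.33 in LPS hearts, the largest fall among genes outside the fat and atrial lists (-2.53 ± 0.11, adjusted p = 7.6e-07). Ptprb, the phosphatase VE-PTP of the TIE2 receptor, read 14.17, 13.95 and 14.11 against 11.78, 12.01 and 11.84 (-2.20 ± 0.08). Tek, which encodes TIE2, the angiopoietin receptor of quiescent vessels, read 12.62, 12.59 and 12.82 against 10.68, 11.05 and 10.72 (-1.86 ± 0.11). Its antagonist ligand Angpt2 rose by 1.15 ± 0.10, and the agonist Angpt1 differed by -0.22 ± 0.10 and did not pass.

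Further members of the list fell as well. The Notch ligands Jag2 (-1.91 ± 0.10) and Dll4 (-0.99 ± 0.12) and the target Heyl (-1.66 ± 0.16) fell, while the ligand Jag1 rose by 0.47 ± 0.06. The adhesion receptor Adgrl4 fell by 2.15 on the log2 scale, the secreted vessel protein Egfl7 by 1.93 and the VEGF receptor Kdr by 1.26. Pcdh12, an endothelial protocadherin, differed by -2.40 ± 0.07 with its brighter probe and by 0.05 with the other. The factor Sox18 (-1.26 ± 0.07), the lipase anchor Gpihbp1 (-1.05 ± 0.08) and the nitric oxide synthase Nos3 (-1.002 ± 0.11) also fell. The flow-responsive factor Klf2 rose by 0.82 ± 0.07, whereas the junctional cadherin Cdh5 (0.17 ± 0.10) and the claudin Cldn5 (-0.20 ± 0.20) did not pass. Of the 9 endothelial markers, 4 fell, 3 of them at least 2-fold, and 1 rose (Vwf, 0.59 ± 0.09), with a median of -0.20. Their summed level was 15.84 to 16.06 in mock and 15.58 to 15.86 in LPS hearts. That sum includes Fabp4, which is also on the fat list and did not pass. The part of a change in endothelial RNA in these falls was not tested.

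**Figure D3:**
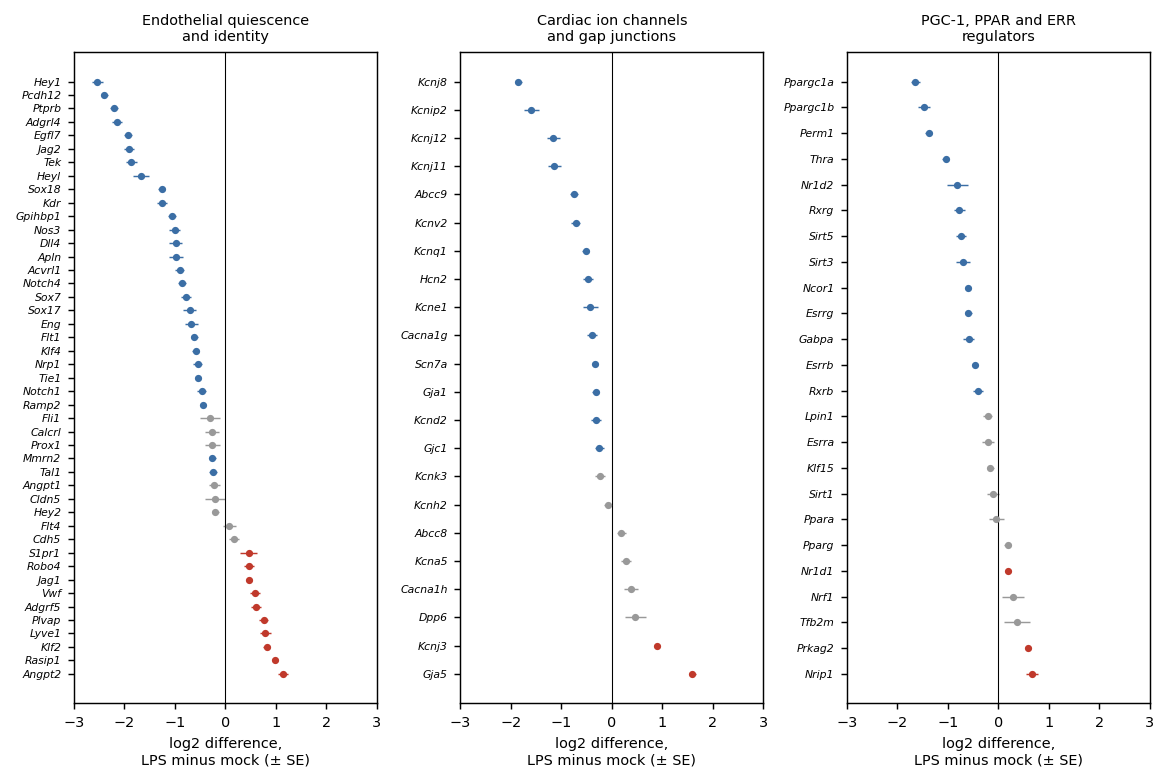
Log2 difference, LPS minus mock, with its SE for each measured gene of endothelial quiescence and identity (left), cardiac ion channels and gap junctions (centre) and PGC-1, PPAR and ERR regulators (right), with genes that fell in blue, rose in red and did not pass in grey. Falls outnumber rises in each panel, at 27 against 10, 14 against 2 and 13 against 3. They also do over all heart genes, at 2794 against 1756.

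Of 12 coagulation and fibrinolysis genes 6 rose and 2 fell, with 1 lower without LPS heart 1 or mock heart 2 and 0 without LPS heart 3 or mock heart 1. The urokinase receptor Plaur was at least 6.01-fold higher from a mock level at the floor, Serpinb2, an inhibitor of plasminogen activators, rose by 1.498 ± 0.08 and the tissue activator Plat by 1.08 ± 0.08. Thrombomodulin, Thbd, an anticoagulant receptor, fell by 0.40 on the log2 scale (adjusted p = 0.027), a call lost without LPS heart 2 or 3 or without mock heart 1 or 2, when the adjusted p was 0.058 to 0.082. Tissue factor, F3, differed by -0.24 ± 0.10 and did not pass. In the vascular tone list 6 of 15 genes rose and 5 fell. Gch1, which makes the nitric oxide synthase cofactor, rose by 1.60 ± 0.11 with its brighter probe and by 0.57 with the other. The vasodilator peptide adrenomedullin, Adm, rose by 1.23 ± 0.06, whereas the nitric oxide receptor subunit Gucy1b1 fell by 1.53 and Ptgs1 by 1.00.

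The other large falls were in genes of varied roles. Abca8a, a lipid transporter, read 12.88, 12.71 and 12.62 in mock and 10.47, 10.51 and 10.27 in LPS hearts (-2.32 ± 0.09). The signalling adaptor Dok4 fell by 2.21, the tetraspanin Tspan13 by 2.20 and Ky, a muscle protein needed for growth and structure of skeletal muscle in mice, by 2.07. The corepressor Cbfa2t3 differed by -2.19 ± 0.29 with its brighter probe and by -0.42 with the other. Ankrd37 fell by at least 2.05, to LPS values next to the floor, the organic anion transporter Slco2b1 by 1.98, the scaffold Slc9a3r2 by 1.95, Lrrc3b by 1.94 and BC028528 by 2.04.

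In the contractile apparatus most abundant transcripts were out of range. Of 27 sarcomere genes 10 fell (37.0%, next to 28.9% of all genes), 2 rose (7.41%, next to 18.2%) and 15 did not pass. Of the 27, 11 were saturated in both groups, so that no fold could be given for them. These 11 could not be called and are among those that did not pass, which lowers both shares. Mylk3, the cardiac kinase of the regulatory light chain, read 13.85, 13.74 and 13.57 in mock and 12.85, 12.65 and 12.75 in LPS hearts (-0.97 ± 0.10). Cavin4, a caveolar protein of muscle, fell by 0.82 and Ldb3, a Z-disc protein, by 0.64. Xirp1, an actin-binding repair protein of intercalated discs, rose by 1.12 ± 0.05. Myh7, the slow myosin heavy chain, differed by -0.35 ± 0.10 (adjusted p = 0.024), a call lost without LPS heart 2, mock heart 1 or mock heart 3 (adjusted p 0.056 to 0.076), and Myh6 was saturated in both groups.

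Of 30 genes of calcium handling and contraction signalling 11 fell (36.7%, next to 28.9% of all genes) and 3 rose (10.0%, next to 18.2%). Without mock heart 2 or 3, 7 fell. The calcium channel subunit Cacnb2 fell by 0.93, the cardiac adenylyl cyclase Adcy6 by 0.88 and triadin, Trdn, of the calcium release complex by 0.73. The cyclic AMP phosphodiesterase Pde4b rose from 11.45, 11.44 and 11.54 to 13.34, 13.50 and 13.17 (1.86 ± 0.08). The calcium pump Atp2a2 was saturated in both groups. Its inhibitor Pln read 12.96 in LPS heart 1 and was saturated on the other 5 arrays, and the difference did not pass (adjusted p = 0.28).

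Ion channel transcripts fell in 14 of 22 members (63.6%, next to 28.9% of all genes), with a median of -0.33. Higher were 2 (9.09%, next to 18.2%), or 4 without mock heart 3. Kcnj8, the pore subunit Kir6.1 of vascular ATP-sensitive potassium channels, read 10.01, 9.88 and 9.78 in mock hearts and lay at the floor in all LPS hearts, at least 3.61-fold lower. The related subunit Kcnj11 (Kir6.2), prominent in cardiomyocytes, fell by 1.14 and Kcnj12, of the inward rectifier current, by 1.16. Kcnip2, the auxiliary subunit of the transient outward current of the ventricle, read from 10.67 to 11.04 in mock and 9.30, 9.10 and 9.53 in LPS hearts (-1.59 ± 0.15, adjusted p = 6.7e-05). Both genes that rose, Gja5 and Kcnj3, are also members of the atrial list, whose summed level was at least 17.82 to 17.86 in LPS and 15.43 to 15.50 in mock hearts. Gja1, the main ventricular connexin, was at least 1.25-fold lower from saturated mock values.

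Of 31 cardiac stress and transcription factor genes, 10 rose and 12 fell. Irx4, a ventricular factor, read 11.65, 11.38 and 11.40 in mock and 9.80, 9.89 and 9.68 in LPS hearts (-1.69 ± 0.09), the cardiac factor Nkx2-5 fell by 1.26 and Gata4 by 1.02. Gata6 (-0.75 ± 0.11), Mef2a (-0.57 ± 0.09), Mef2c (-0.56 ± 0.13) and Hand2 (-0.37 ± 0.11) also fell. Tbx5 (0.02), Irx3 (0.24), Irx5 (0.15) and Tead1 (-0.07) did not pass, and Tbx20 lay at the floor in both groups. Gdf15, a stress-induced hormone, fell by 1.88. The growth arrest genes Gadd45g (2.48 ± 0.05) and Cdkn1a (1.99 ± 0.06) rose. The natriuretic peptide gene Nppb read 14.82, 14.52 and 14.88 in mock and 14.63, 14.62 and 14.65 in LPS hearts, and its difference of -0.10 ± 0.09 did not pass.

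Of 15 ventricular muscle transcripts 7 fell and none rose (1 without LPS heart 1), with a median of -0.32. Beside Irx4 and Kcnip2 these were Lbh (-0.88 ± 0.09), Fhl2 (-0.49 ± 0.07), Myh7, Hrc (-0.34 ± 0.08) and Kcnd2 (-0.32 ± 0.11). Not passing were Hey2 (-0.20), Irx5 (0.15), Irx3 (0.24), Cox6a2, Pln and the saturated genes Ckm, Myl2 and Myl3. Over the 9 ventricular genes saturated on no mock or LPS array the summed level was 16.02 to 16.19 in mock and 15.67 to 15.77 in LPS hearts. With all 15 it was 18.78 to 18.81 and 18.44, 18.70 and 18.70, a sum capped by saturated genes, and without Pln, whose value in LPS heart 1 is given above, it was 18.55 to 18.58 and 18.41 to 18.46. Among cardiomyocyte markers Nkx2-5 fell. Ttn differed by -0.43 ± 0.09 with the probe used, the dimmest of its 3 in heart, and by 0.34 and -0.02 with the other 2, so that its direction was not settled. Ryr2 (-0.03 ± 0.06), Fabp3 (-0.12 ± 0.09) and Mybpc3 (-0.22 ± 0.09) did not pass, and the remaining 9 were Pln and the 8 saturated genes named above. The part of the muscle mix in the falls of ventricular genes was not tested.

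Regulators of energy metabolism fell more often than they rose. Of 24 PGC-1, PPAR and ERR genes 13 fell (54.2%, next to 28.9% of all genes) and 3 rose (12.5%, next to 18.2%). The other 8 did not pass, and the median was -0.43. Ppargc1a, the coactivator PGC-1alpha that drives mitochondrial biogenesis, read 10.50, 10.55 and 10.61 in mock and 8.90, 8.99 and 8.82 in LPS hearts (-1.65 ± 0.09, adjusted p = 3.1e-06). Its relative Ppargc1b read 11.09, 11.49 and 11.45 against 9.85, 9.93 and 9.80 (-1.48 ± 0.12), and the muscle regulator Perm1, which acts with both, read 15.18, 15.29 and 15.23 against 13.88, 13.76 and 13.92 (-1.38 ± 0.06). The LPS arrays lay below all mock arrays for these 3 genes. The thyroid hormone receptor Thra fell by 1.04 and the estrogen-related receptor Esrrg by 0.60. Ppara, the fatty acid receptor, read 8.82, 8.88 and 8.35 against 8.73, 8.53 and 8.66, overlapping groups with a difference of -0.04 ± 0.14.

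Among the enzymes many were out of range. Of 47 respiratory chain and citrate cycle genes 9 fell and 1 rose, and 21 were saturated in both groups. Those 21 could not be called, so the 19.1% that fell cannot be weighed against the 28.9% of all genes. Without mock heart 3, 5 fell, and without mock heart 1, 2 rose. Sucla2, a subunit of succinyl-CoA synthetase, fell by 1.20 and the complex I subunit Ndufb3 by 0.75. Of 32 fatty acid genes 9 fell (28.1%, next to 28.9% of all genes) and 4 rose (12.5%, next to 18.2%). Another 6 were saturated in both groups and could not be called, which lowers both shares. Acads fell (-0.67 ± 0.11), as did the acyl-CoA synthetase Acsl1 (-0.66 ± 0.08). The lipoprotein lipase inhibitor Angptl4 rose from 10.90, 10.68 and 10.70 to 14.18, 14.20 and 14.09 (3.40 ± 0.09). Cd36, the fatty acid transporter, differed by -0.41 ± 0.20 and did not pass. Lipe, which rose, is a member of the fat list as well.

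Of 26 genes of glucose use, 5 rose (19.2%) and 8 fell (30.8%), shares near the 18.2% and 28.9% of all genes. Pfkfb3, the inducible enzyme that makes the activator of phosphofructokinase, read 10.25, 10.55 and 10.58 in mock and 14.61, 14.33 and 14.58 in LPS hearts (4.05 ± 0.11, adjusted p = 4.4e-08). Pfkfb2, the cardiac isoenzyme, fell from 11.50, 11.43 and 11.43 to 10.31, 10.40 and 9.93 (-1.24 ± 0.11). Pdk4, the kinase that shuts off pyruvate dehydrogenase, rose by 1.44 ± 0.11. The insulin-responsive glucose transporter Slc2a4 fell by 0.66, and the basal transporter Slc2a1 rose by 0.77 ± 0.08. Hk2 (-0.25) and Ldha (0.10) did not pass, and their mock arrays lay near saturation, at 15.46 to 15.67 and 15.74 to 15.82.

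**Figure D4:**
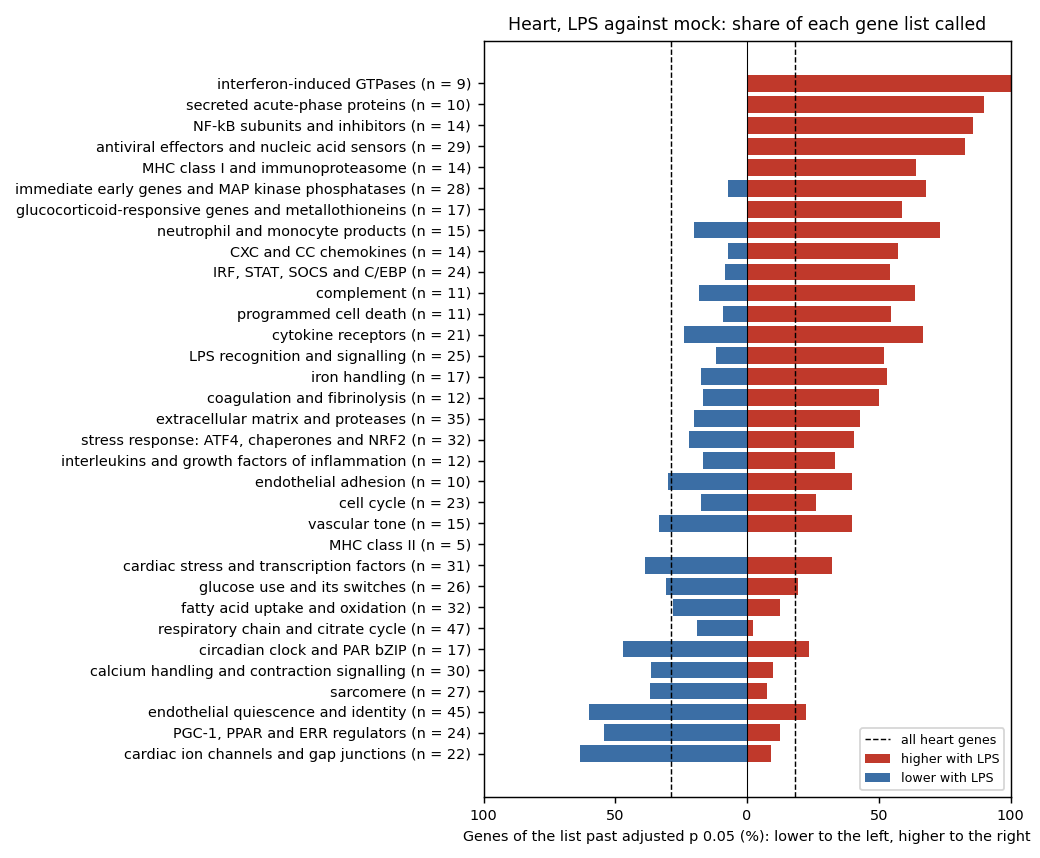
Share of the measured genes of each of 33 pathway lists that rose (red, to the right) or fell (blue, to the left) with LPS, with the number measured in brackets and dashed lines at the shares over all heart genes (18.2% higher and 28.9% lower). Interferon-induced GTPases lie at the top with 9 of 9 higher, and cardiac ion channels at the bottom with 14 of 22 lower. Genes saturated in both groups count as measured though they could not be called, as 21 of 47 respiratory chain and citrate cycle genes.

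Immediate early genes rose in 19 of 28 members and fell in 2, with Fos at 3.06 ± 0.09, Egr1 at 2.80 ± 0.09 and Atf3 at 2.54 ± 0.10. Glucocorticoid-responsive genes rose in 10 of 17 members with none lower (1 without mock heart 1), among them Dusp1, a phosphatase of MAP kinases, by 1.53 ± 0.10 and Fkbp5 by 1.18, while Per1 (0.00) and Tsc22d3 (-0.15) did not pass. In the clock list 8 of 17 fell, or 5 without mock heart 2 or 3, and 4 rose. The output factor Dbp fell by 1.07 and Nfil3, its repressing counterpart, rose by 1.23 ± 0.11, and Per3 differed by -1.24 ± 0.09 with one probe and 0.10 with the other. Of 32 stress genes 13 rose and 7 fell, with 4 lower without LPS heart 2 and 3 without mock heart 3. The rises were led by asparagine synthetase, Asns (2.57 ± 0.08), and by Gpx3 (2.01 ± 0.13).

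Matrix genes rose in 15 of 35 members and fell in 7, or in 4 without mock heart 2. Cd44, the hyaluronan receptor, rose by 2.99 ± 0.08 and the membrane metalloproteinase Mmp14 by 1.58 ± 0.09, while the aggrecanase Adamts5 fell by 1.55 and the proteoglycan lumican, Lum, by 0.97. Markers of fibroblasts, pericytes and smooth muscle rose in 6 of 14 members and fell in 4, or in 2 without mock heart 1, with the smooth muscle myosin Myh11 at 1.31 ± 0.10, and their summed level was 17.82 to 18.01 in mock and 18.07 to 18.08 in LPS hearts. Of 23 cell cycle genes 6 rose and 4 fell, with the inhibitor Cdkn1c at -1.21 ± 0.07.

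The heart response differed from the mean response of brain, kidney and liver for 2620 of 6861 genes measured in all 4 tissues (38.2%). It lay above for 1234 genes (18.0%) and below for 1386 (20.2%). Only differences within a tissue entered this test, so that intensities were not compared between tissues. Vcam1 rose by 3.44 in heart, 2.87 in kidney, 0.56 in liver and 0.44 in brain, with heart above the mean of the others by 2.15 ± 0.10 (adjusted p = 8.5e-17). Pfkfb3 exceeded that mean by 1.87 ± 0.14 and Angptl4 by 1.85 ± 0.11. Icam1 exceeded it by 0.39 ± 0.09. The fall of Egfl7 was deeper in heart by 1.26 ± 0.10, with -1.93 in heart and -0.49 in brain, -0.66 in kidney and -0.88 in liver. Ppargc1b was lower in heart than in the others by 0.94 ± 0.10.

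The genes furthest above the other tissues, fat and atrial lists left out, were led by Cdo1, which rose by 4.52 in heart and differed by 0.30, 0.46 and -0.03 in brain, kidney and liver. Its LPS+genipin values, given above, lay close to mock, the order of groups seen for the fat and atrial lists. Genes outside those lists, such as Isg20, had that order too. The part of tissue makeup in the Cdo1 difference was not tested. Fcgr2b, the inhibitory receptor for immunoglobulin G, rose by 3.13 in heart against 0.99, 0.34 and -2.15. Lbp rose by 4.52 in heart against 1.99, 1.57 and 2.13. Sdc4, a heparan sulfate proteoglycan, rose by 3.41 in heart against 0.97, 1.40 and 0.79. Furthest below was Cd14, which rose by 2.40 in heart against 4.12 in brain, 5.48 in kidney and 5.60 in liver. The receptor ligand Efna1 differed by -1.52 in heart against -0.16, 0.59 and 2.63, and hexokinase Hk2 by -0.25 against 0.35, 2.04 and 2.60.

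**Figure D5:**
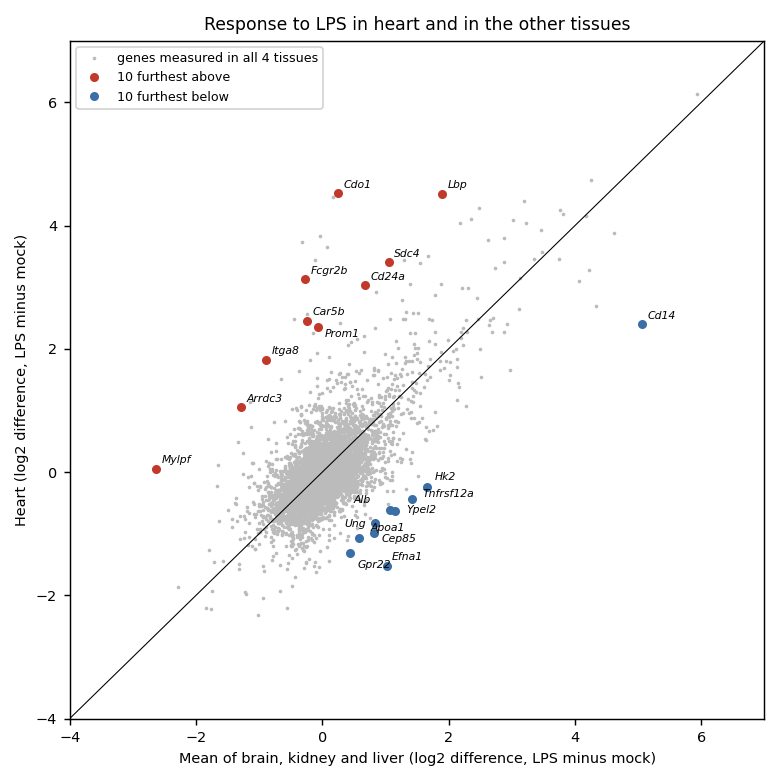
Log2 difference, LPS minus mock, in heart (vertical) against the mean of brain, kidney and liver (horizontal), 1 point per gene measured in all 4 tissues, with the line of equal response. The 10 genes furthest above (red) and furthest below (blue) are named, fat and atrial lists left out, with Cdo1 at 4.52 in heart and Cd14 at 2.40 against 5.07 as the extremes.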

How the data were processed

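Total RNA of whole tissue was labelled with Cy5 and hybridised to one-colour arrays, per the labels' protocols. The authors deposited intensities on the linear scale for 18183 probes, 4640 of them missing on all heart arrays. Sorted intensities as deposited were almost identical among the 9 heart arrays, as quantile normalization within a tissue gives. The submitters' processing notes name limma, with no version or role. The sources used here do not state the background correction or the probe filter. Quantile normalization makes array totals equal, so differences are relative to the other genes, and the number of arrays limits the precision.

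Intensities were raised to their 5th percentile over the table and converted from the deposited scale to log2. A gene with several probes was represented by its brightest probe, by mean over its measured arrays among the 36. Symbols came from the platform annotation: 14817 probes carried 1 symbol, 3366 none, and 2318 symbols were updated through RefSeq synonyms. Of 9669 heart genes 1339 had more than 1 measured probe. Group means of all 9 heart arrays were estimated with limma 3.58.1 under R 4.3.3, so that the 3 LPS+genipin hearts entered only the estimate of spread, and two-sided moderated p-values were adjusted by Benjamini-Hochberg with 0.05 as threshold. The comparison with brain, kidney and liver used 1 fit over 36 arrays and 6861 genes. Scripts were tested on simulated data, and tables and plots were made with matplotlib 3.10.9, numpy 2.4.6 and pandas 2.3.3 under Python 3.11.15. A bound was the difference of group means with saturated arrays at their value and floored arrays at the floor. A summed level is the log2 of the summed intensities of a list.

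Earlier results of these data were known when the heart comparison, the 44 gene lists and the naming rule were chosen. Named were the 15 largest rises and falls past the threshold and at least 2-fold, without overlap and outside the fat and atrial lists; up to 6 changed members per list; all fat, atrial, ventricular and cardiomyocyte members; a panel of 25 genes of endotoxin and heart biology, of which 18 were measured; the 10 genes furthest above and below the other tissues; and up to 4 promoters. Other members are named with values where the text singles them out, and were chosen after their values were seen. Of the 9669 genes 7815 had a promoter in the RefSeq table. One searched motif and its promoter are not reported here. Replicate numbers of the titles were not treated as pairs. Alternatives were no floor, a floor at the 10th percentile, the mean of all probes, median centring, each replicate left out, the replicate number as a block, 6 arrays only, an intensity trend, dim genes left out, normalization without the fat and atrial lists, and the tissue comparison without brain.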

Additional observations from a re-analysis of the deposited data

Results flagged for a closer look

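The response to LPS differed between heart and the other 3 tissues, by a test of the difference itself, for 1234 genes with a heart response above the mean of the others and for 1386 below it. The 10 genes furthest above, as heart difference minus the mean of the others on the log2 scale, were Cdo1 (4.28), Fcgr2b (3.40), Itga8 (2.72), Car5b (2.70), Mylpf (2.69), Lbp (2.62), Prom1 (2.43), Sdc4 (2.35), Cd24a (2.35) and Arrdc3 (2.33). For Mylpf the heart difference was 0.06 while brain differed by -7.29, and for Arrdc3 heart rose by 1.05 while liver fell by 4.66 on the log2 scale, so that 1 of the other tissues set these values. The 10 genes furthest below were Cd14 (-2.66), Efna1 (-2.54), Hk2 (-1.91), Tnfrsf12a (-1.84), Cep85 (-1.80), Ypel2 (-1.79), Gpr22 (-1.76), Alb (-1.68), Ung (-1.67) and Apoa1 (-1.65). Mock hearts lay near saturation for Hk2, as given above. Car5b read 8.04, 8.04 and 8.10 in mock hearts, 10.53, 10.57 and 10.44 in LPS hearts and 8.04 in each LPS+genipin heart, and Cd24a read 12.69, 12.66 and 12.52 in LPS hearts against 9.69, 9.71 and 9.68 in LPS+genipin and 9.65, 9.55 and 9.56 in mock hearts. Cdo1, Itga8 and Prom1 likewise differed from mock by 4.52, 1.82 and 2.36 in LPS hearts and by 0.63, -0.23 and 0.56 in LPS+genipin hearts. These 5 genes thus had the order of groups seen for the fat and atrial lists, and the part of tissue makeup in their difference was not tested. That order also occurred outside those lists. Isg20 read 10.42 to 10.75 in mock, 12.81 in LPS and 10.38 to 10.64 in LPS+genipin hearts. For C2 the values were 9.76 to 9.81, 11.83 to 11.88 and 9.86 to 10.14. Alb lay at the floor in all LPS hearts, so its heart fall of at least 0.61 is a bound. Liver differed by -4.3e-05 for Alb and by -0.008 for Apoa1, and saturation of the liver arrays was not examined.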

How the results depend on the processing

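The count of 4550 changed heart genes was 4560 with no floor, 4434 with a floor at the 10th percentile, 4640 with the mean of all probes, 4601 with median centring, 4060 with 6 arrays only, 4557 with an intensity trend, 3942 after 1870 dim genes were left out, and 3904 to 4247 with 1 replicate left out. The tissue comparison went from 2620 genes to 2608, 2655, 2673 and 2638 under the first 4 of these settings, and to 2276 to 2577 with 1 heart replicate left out. Without brain, 156 genes lay at least 2-fold below the other tissues in place of 84. Same-numbered mock and LPS hearts did not deviate together, with correlations of -0.07, -0.22 and -0.07, so the numbers were not taken as pairs. Same-numbered LPS and LPS+genipin hearts gave -0.50, 0.25 and -0.52. Larger positive values joined LPS heart 1 with LPS+genipin heart 3 (0.57) and LPS heart 3 with LPS+genipin heart 1 (0.59). The source of these shared deviations was not tested. With the replicate block 4064 heart genes changed, 1572 higher and 2492 lower, 4005 of them shared with the fit without it, and 2625 genes differed between tissues. Over 763 heart genes of the lists and rules, 10882 of 11329 recomputed values kept direction and side of the threshold, 320 values of 68 genes lost the call and 124 values of 83 genes gained one. The 3 values that turned sign were Tbx20 at -0.47 with no floor (0.00 with both groups at the floor), and with the mean of all probes Hadh at -0.39 and Slc8a1 at 0.13. Of 88 list counts 23 moved by over 1.5 times under at least 1 alternative, 17 of genes lower and 6 of genes higher. With the replicate block the count lower was 1 for interleukins, LPS recognition, IRF, complement and coagulation, 2 for macrophage markers and 4 for stress genes. With 6 arrays only it was 1 for IRF, complement and coagulation, 2 for macrophage markers, 3 for stress and 4 for matrix genes. The calls of Tlr4, Thbd, Myh7, Shox2, Kcnd2 and Ttn were each lost under at least 1 alternative. The calls and directions of the 20 genes that differed most between tissues held in 240 of 240 values. Saturation hid most abundant muscle and mitochondrial transcripts, and the floor hid falls of dim genes.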

Other observations

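Limits of the scale met 330 of the 9669 heart genes, with 37 genes at the floor and 80 saturated in both groups. Of the genes that rose, 25 lay at the floor in all mock hearts and 15 were saturated in all LPS hearts, and of those that fell, 56 lay at the floor in all LPS hearts and 7 were saturated in all mock hearts. Among 1339 genes with several measured probes, 56 had probes whose differences lay over 1 log2 unit apart, and in 1 gene probes moved at least 2-fold in opposite directions.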
